A study of Macaca mulatta with 5 samples.

Results

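CYFIP2 (cytoplasmic FMR1 interacting protein 2, ENSMMUG00000010997) was examined in RNA-Seq libraries of 5 tissues of the rhesus macaque, as the 5 transcripts that carry its gene identifier among 51763 transcripts, or 1 gene among 28633 with an identifier. The gene was selected on its measured RPKM in kidney and lung, together with the low editing that the study describes there at a known recoding site of the gene, so its levels are given as a description and without a test. The libraries were made from cerebellum, kidney, lung, heart and spleen labelled as male, with 1 strand-specific poly(A)-positive library per tissue and no replicates. The study's methods place cerebellum, kidney, lung and heart in the same animal, whereas the animal behind the spleen library is not stated in the sources used here. No treatment and no age are given in the labels, and each library is whole tissue, so in every value below fewer cells of a type and less RNA per cell cannot be told apart.

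CYFIP2 and its paralog CYFIP1 are alternative subunits of the WAVE regulatory complex, in which a CYFIP protein, an NCKAP1 protein, a WASF (WAVE) protein, an ABI protein and the small subunit BRK1 are bound together. The CYFIP subunit takes up activated Rac, which releases the WASF subunit to switch on the Arp2/3 complex and the growth of branched actin filaments. CYFIP proteins also bind FMRP, the protein lost in fragile X syndrome. CYFIP2 is best known from neurons and lymphocytes. Its mRNA carries a conserved A-to-G editing site that replaces a lysine by a glutamate and is attributed mainly to ADAR2 (gene ADARB1), an adenosine deaminase that acts on double-stranded RNA.

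The 5 transcripts lie on chromosome 6 of rheMac2. The longest span, 153639522 to 153773915, belongs to IMMRT11001014819, a transcript with 6416 bp of exon. It had the highest RPKM summed over the 5 tissues and stands for the gene below. IMMRT10011014818 (6578 bp) and IMMRT11011014820 (6668 bp) both start at 153642736 and end at 153773915 and 153774005. IMMRT10010014817 (3947 bp) runs from 153659635 to 153771486 and is called the inner transcript. IMMRT10001014816 (671 bp) covers only 153706042 to 153734276, within the span of the other models. The files give no exon coordinates and no strand, so which exons the models share could not be read from them. The position of the known recoding site falls within the span of 4 of the 5 transcripts, all except the 671 bp one, and within the span of 0 transcripts of other genes. Editing levels are not part of the deposited tables, and none are given here.

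CYFIP2 was high in 4 of the tissues and low in heart. In RPKM, which scales reads to exon length and to properly mapped reads, the 6416 bp transcript had 38.2 in cerebellum, with a 95% Wilson interval of 37.6 to 38.7 from 19963 reads. Spleen followed with 34.2 RPKM (interval 33.6 to 34.7, 14707 reads). Lung had 25.4 RPKM (25.0 to 25.9, 12688 reads). Kidney had 21.3 RPKM (20.8 to 21.8, 6603 reads). The lowest value was that of heart, at 1.13 RPKM (1.03 to 1.24, 460 reads). No 2 neighbours in this order had overlapping intervals, but these intervals cover the counting of reads only. Both reads of a pair may be counted, and with 1 library per tissue no spread between animals or preparations is known.

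**Figure D1:**
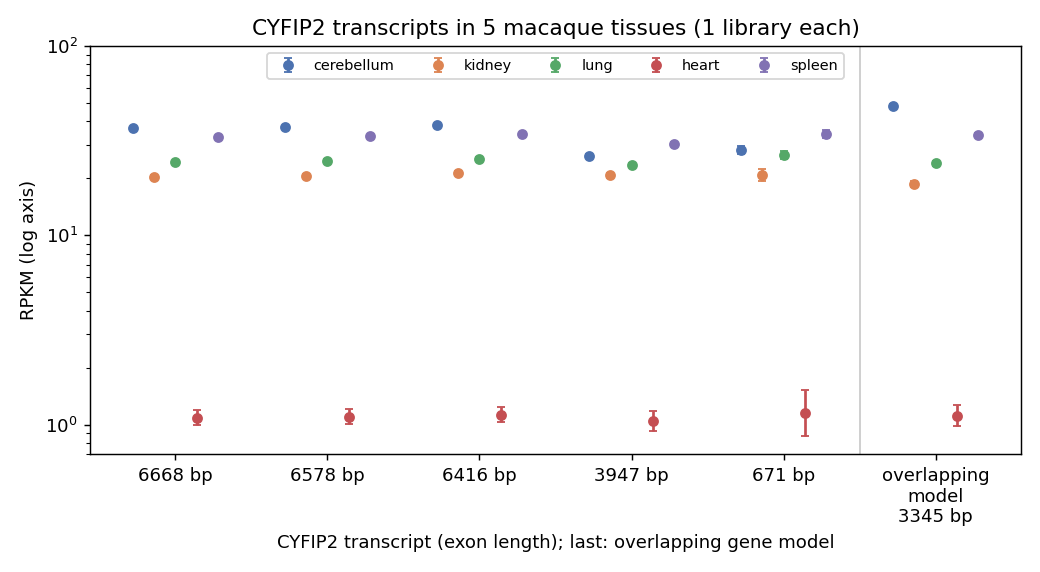
RPKM (log axis) of the 5 CYFIP2 transcripts, ordered by exon length, and of a gene model that overlaps the end of the gene (right of the line), in 5 tissues. Points are single libraries and bars are 95% Wilson intervals for counting error. Heart sits near 1 RPKM for every model, and cerebellum is above spleen for the 3 long transcripts (38.2 against 34.2 RPKM at 6416 bp) but below it for the inner one (26.3 against 30.3 RPKM), which holds on the deposited scale but not after upper quartile or median ratio scaling.

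As ratios of the deposited RPKM, cerebellum was 33.7 times heart, with a 95% exact interval of 30.7 to 37.1 for the read numbers alone. It was 1.79 times kidney (1.74 to 1.84), 1.5 times lung (1.47 to 1.54) and 1.12 times spleen (1.09 to 1.14). Kidney was 0.84 times lung (0.81 to 0.86), which turned to 1.08 times under median ratio scaling. It was 0.62 times spleen (0.61 to 0.64), and lung was 0.74 times spleen (0.73 to 0.76). Kidney, the lowest of the 4 high tissues, was 18.8 times heart (17.1 to 20.7). With 1 library per tissue, a gene was counted as higher or lower in cerebellum when it differed by at least 2-fold with 1 RPKM as the floor, and CYFIP2 met this against heart only on the deposited scale. Under upper quartile scaling, median ratio scaling and division by summed transcript reads it was also at least 2-fold higher than in kidney (2.06, 2.07 and 2.01 times), and under median ratio scaling than in lung (2.24 times). Among genes at 1 RPKM or more in either tissue, 43.4% were at least 2-fold higher in cerebellum than in heart and 12.1% were lower, so the direction alone was common. The corresponding shares were 19.0% higher and 27.6% lower against kidney, 15.0% higher and 33.3% lower against lung, and 16.2% higher and 35.5% lower against spleen. The library scale bears on these ratios. Reads summed over all transcripts came to 47.9% of the properly mapped reads in heart. In the other libraries this share was 71.3% to 91.5%, with reads listed under several transcripts counted more than once. The upper quartile of nonzero RPKM was 3.99 for heart but 7.04 to 9.85 for the rest, and after scaling to it cerebellum was 19.1 times heart, 2.06 times kidney, 1.90 times lung and 1.56 times spleen. With that scaling 3234 genes were higher and 2865 lower in cerebellum than in heart, in place of 5380 and 1499.

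The rank of CYFIP2 among all genes of a library is free of that scale. Among the 28633 genes, each taken by its transcript with the highest summed RPKM, CYFIP2 ranked 780 from the top in cerebellum, 1166 in spleen, 1665 in lung, 1988 in kidney and 8937 in heart. Against only the genes at 1 RPKM or more, it was above 93.2% of 11436 genes in cerebellum and 90.7% of 12510 in spleen. In lung it was above 87.2% of 13008 and in kidney above 83.4% of 11958. In heart it was above 4.05% of 9314. Unlike the rank among all genes, these shares depend on the library scale, and the share in heart was 17.6% of 10852 genes after upper quartile scaling and 19.9% of 11164 after median ratio scaling.

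Genes with the same kind of gap between heart and the other tissues were listed as a description, since the kidney and lung levels that enter it were used to choose CYFIP2 and the limits were set after its values were seen. Of 724 genes at 20 RPKM or more in all of cerebellum, kidney, lung and spleen, 2 were under 2 RPKM in heart. These were CYFIP2 and TKT, the transketolase of the pentose phosphate pathway, for which cerebellum held 25.7 RPKM, kidney 33.4, lung 29.0, spleen 29.5 and heart 1.93. The median heart level of the 724 genes was 30.5 RPKM. After upper quartile scaling CYFIP2 was at 18.6 RPKM in kidney and would not belong to this set. The ratio of the lowest of the 4 tissues to heart, with heart values under 1 RPKM set to 1, was 18.8 for CYFIP2, and 6 genes had a ratio of 10 or more. The other 5 were the gene model ENSMMUG00000011008 that overlaps CYFIP2 (16.8), the kinase RPS6KA1 (14.1), TKT (13.3), the semaphorin receptor PLXNB2 (11.9) and the actin-binding MTSS1 (10.9). This set depended on the scale and the floor. With upper quartile scaling the CYFIP2 ratio was 9.30 and 1 gene reached 10, with median ratio scaling it was 7.49 and 0 genes did, and with the floor in heart at 0.1 RPKM 87 genes did and CYFIP2 ranked 19 among them.

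The tissue labels were checked against markers. Of the 8 neuronal and cerebellar markers in the files, 7 were highest in cerebellum, and CALB1, which kidney tubules also express, was highest in kidney. All 6 kidney, 6 lung and 5 heart markers were highest in their own tissue, and all 7 leukocyte markers were highest in spleen. The summed leukocyte markers and CYFIP2 fell in the same order over spleen, lung and kidney, on the deposited scale. In cerebellum CYFIP2 was highest and the marker sum lowest, and in heart CYFIP2 was lowest while the marker sum was above that of kidney. The marker sum ran from 2478 RPKM for spleen through 667 for lung, 149 for heart and 105 for kidney to 16.7 for cerebellum. Most of this sum was CD74 in every tissue, with 1857 RPKM for spleen, 571 for lung, 145 for heart, 99.3 for kidney and 15.1 for cerebellum. The sum is therefore mainly a measure of that 1 gene. PTPRC, the common leukocyte antigen CD45, was at 148 RPKM for spleen and 30.3 for lung, but at 1.73 for kidney, 0.65 for heart and 0.19 for cerebellum. CYFIP2 was at 21.3 RPKM in kidney, where PTPRC was at 1.73. What part leukocytes had in the CYFIP2 level of kidney, lung, spleen or any other tissue was not tested. Summed over the 3 endothelial markers, lung had 256 RPKM, spleen 63.5, heart 33.4, kidney 24.3 and cerebellum 3.36. The neuronal markers summed to 1901 RPKM in cerebellum, 490 in kidney, 6.49 in heart, 2.78 in lung and 1.62 in spleen. In kidney CALB1 alone had 488 RPKM. CYFIP2 was at 34.2 RPKM in spleen and 25.4 in lung. Which cells carried CYFIP2 in any of the tissues was not tested.

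The 3 long transcripts could not be separated by their reads. Their read numbers in 1 tissue differed by at most 0.49%, and in heart all 3 had 460 reads. The 6578 bp and 6668 bp transcripts had 19980 reads each in cerebellum. Because the same reads can be listed under several transcripts of a gene, these 3 rows are close to 1 measurement given 3 times.

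The inner transcript differed from them in cerebellum. Spleen led with 30.3 RPKM, then came cerebellum with 26.3, lung with 23.6 and kidney with 20.7, and heart had 1.05. Relative to the 6416 bp transcript the level was 0.69 for cerebellum but 0.89 for spleen, 0.93 for lung, 0.93 for heart and 0.97 for kidney. The inner transcript has 61.5% of the exon length of the 6416 bp one, and it held 42.3% of its reads in cerebellum against 54.6% to 59.9% in the other tissues. The 671 bp transcript behaved alike, with spleen at 34.2 RPKM, cerebellum at 28.1, lung at 26.6, kidney at 20.8 and heart at 1.15.

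The end of the gene was also measured by another row. The gene model ENSMMUG00000011008 (IMMRT10011014821, 153770657 to 153774006) has no symbol, and 3345 of the 3350 bases it spans are exon. Its first 3259 bases lie within the span of the 6416 bp transcript, and 830 within that of the inner one. Cerebellum was at 48.3 RPKM for this model, spleen at 33.8, lung at 24.0, kidney at 18.7 and heart at 1.11. In cerebellum this was 1.27 times the level of the 6416 bp transcript, whereas in the other tissues it was 0.88 to 0.99 times that level. Its reads came to 66.0% of those of the 6416 bp transcript in cerebellum and 45.7% to 51.7% elsewhere. The strand of the model is not in the files, so whether these are reads of CYFIP2 itself cannot be told apart from a separate overlapping transcript.

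**Figure D2:**
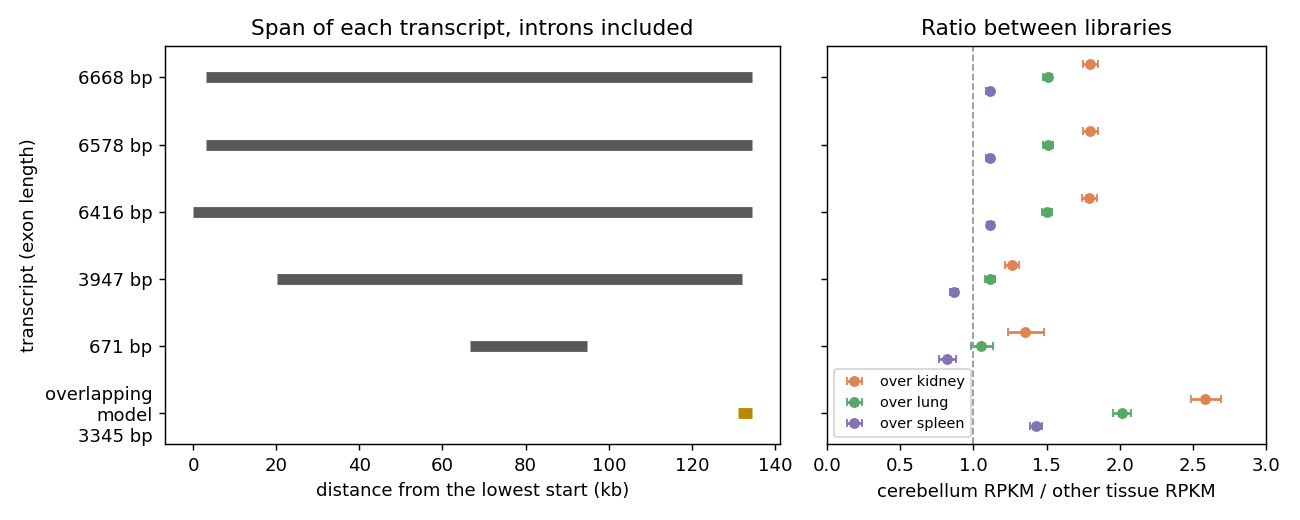
Left, span of each CYFIP2 transcript and of the overlapping model (yellow) in kb from the lowest start, introns included, with exon length as the label. Right, deposited RPKM in cerebellum over that in kidney, lung and spleen for the same rows, with 95% exact intervals for counting error and a dashed line at 1. The ratios are lowest for the 2 models inside the gene (cerebellum over spleen 0.87 and 0.82) and highest for the model at its end (1.43).

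On the deposited scale, the order of cerebellum and spleen differed between the models. With the inner transcript, cerebellum was 0.87 times spleen (95% exact interval 0.84 to 0.89), 1.11 times lung (1.08 to 1.15) and 1.27 times kidney (1.22 to 1.32). With the 671 bp transcript it was 0.82 times spleen (0.77 to 0.88), 1.06 times lung (0.98 to 1.14) and 1.35 times kidney (1.24 to 1.48). With the model at the end of the gene it was 1.43 times spleen (1.39 to 1.47), 2.02 times lung (1.96 to 2.08) and 2.59 times kidney (2.49 to 2.69). The library scale undid the reversal for the most part. Cerebellum over spleen was 1.21 for the inner and 1.15 for the 671 bp transcript after upper quartile scaling, 1.32 and 1.26 after median ratio scaling, and 1.05 and 0.99 when divided by summed transcript reads. The low place of heart was common to all models, since cerebellum was 24.4 to 43.3 times heart across the inner, short and 6416 bp transcripts and the model at the end of the gene, as deposited.

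A lower level of shorter models within the span of the main transcript, relative to the other tissues, was a general feature of the cerebellum library. Such a model can share an end with the main transcript, so coverage inside genes was not measured. Among other genes, 754 transcripts of 609 genes lay within the span of the gene's main transcript, had 30 to 80% of its exon length and had at least 100 reads in every tissue. The median ratio of their RPKM to that of the main transcript was lowest for cerebellum (0.60) and higher for heart (0.72), lung (0.76), spleen (0.78) and kidney (0.81). The main transcript is the highest one by choice, so ratios under 1 are built in, and the comparison between tissues carries the information. Taken as cerebellum over kidney, this ratio had a median of 0.76 over the other transcripts and was 0.71 for CYFIP2, and 39.9% of the others were at or below the CYFIP2 value. Against lung it was 0.74 for CYFIP2 beside a median of 0.82, against heart 0.74 beside 0.85, and against spleen 0.77 beside 0.77. CYFIP2 was therefore well within the range of other genes in this respect. This comparison was chosen after the CYFIP2 values had been seen. The cause of the difference between the libraries was not tested.

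**Figure D3:**
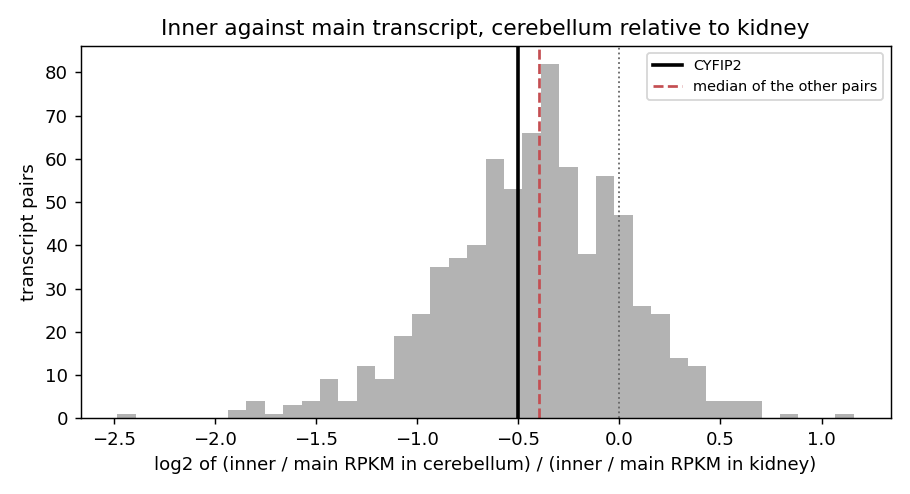
Distribution over 754 transcripts of other genes of the inner to main RPKM ratio in cerebellum divided by that in kidney, on a log2 axis; bars count transcript pairs. The black line marks CYFIP2 (a ratio of 0.71), the dashed line the median of the other pairs (0.76) and the dotted line equality, and CYFIP2 lies near the middle.

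CYFIP1, the other CYFIP gene, had the opposite order in cerebellum. Its single transcript (ENSMMUG00000003890, 4404 bp) reached 14.7 RPKM for lung, 10.6 for kidney and 9.01 for spleen, against 2.29 for heart and 1.57 for cerebellum. Per exon length, CYFIP2 was 24.3 times CYFIP1 in cerebellum (95% exact interval of the read numbers 22.3 to 26.5), 3.79 times in spleen (3.64 to 3.95), 2.02 times in kidney (1.92 to 2.12) and 1.72 times in lung (1.67 to 1.78). In heart CYFIP2 was the lower of the pair, at 0.49 times CYFIP1 (0.44 to 0.56). CYFIP2 thus made up 96.0% of the summed CYFIP level of cerebellum, 79.1% of that of spleen, 66.9% of kidney, 63.3% of lung and 33.0% of heart. A ratio within a library is free of the library scale. With the inner transcript in place of the 6416 bp one, the ratio was 16.7 for cerebellum, 3.37 for spleen, 1.96 for kidney, 1.60 for lung and 0.46 for heart, in the same order. The genes are close paralogs, and reads that fit both could have been assigned to either or dropped.

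Summed over both genes, CYFIP came to 43.2 RPKM for spleen, 40.2 for lung, 39.7 for cerebellum, 31.9 for kidney and 3.43 for heart. The 4 high tissues were closer in this sum than in CYFIP2 alone. In heart the NCKAP1 genes, whose products bind CYFIP in the complex, summed to 15.9 RPKM, the WASF genes to 6.80 and the ABI genes to 5.73. With the 6416 bp transcript, CYFIP was the lowest of these 4 sums in heart, whereas in cerebellum and kidney it was the highest. In cerebellum this place rested on that transcript. The inner transcript was at 26.3 RPKM there and CYFIP1 at 1.57, against sums of 30.7 for NCKAP1 and 32.3 for WASF. In lung, with the 6416 bp transcript, CYFIP stood level with the WASF sum, at 40.1 RPKM. In spleen the NCKAP1 sum was the highest, at 71.3 RPKM.

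The other subunits differed in their tissue patterns, and several were present in all 5 tissues. Of the 11 genes of the complex, 10 were in the files under their symbol, and BRK1 was not analysed here. Counted as above and with CYFIP2 included, 3 of 8 at 1 RPKM were at least 2-fold higher in cerebellum than in kidney and 3 were lower. Against lung 2 of 10 were higher and 5 lower, against heart 4 of 8 were higher and 0 lower, and against spleen 3 of 10 were higher and 5 lower. Over all genes, 19.0% were higher and 27.6% lower against kidney, and 15.0% higher and 33.3% lower against lung. Against heart 43.4% were higher and 12.1% lower, and against spleen 16.2% were higher and 35.5% lower. CYFIP2 itself was among the 4 higher than in heart, a share near that of all genes, and nothing was read from so few genes.

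WASF3, a WAVE protein of the nervous system, was at 21.9 RPKM for cerebellum, then 8.87 for kidney, 5.17 for lung, 2.40 for spleen and 1.24 for heart. WASF1, its brain-enriched relative, had 4.57 RPKM in cerebellum, with 0.52 as the next highest value, measured over a model of only 540 bp. WASF2, the broadly expressed form, was led by spleen with 41.4 RPKM and lung with 34.4, and kidney had 15.1, cerebellum 5.89 and heart 5.54. NCKAP1 ranged from 29.9 RPKM in cerebellum to 12.0 in spleen, with 15.3 in heart. Its blood cell counterpart NCKAP1L (HEM1) had 59.3 RPKM in spleen, 12.6 in lung and under 1 in kidney, cerebellum and heart. ABI3 followed a similar course, with 20.1 RPKM in spleen, 4.02 in lung and under 1 in the other tissues. ABI1 ran from 17.0 RPKM in spleen to 2.18 in heart, and ABI2 from 11.7 in cerebellum to 3.25 in heart. CYFIP2 was high both where WASF3 was highest, in cerebellum, and where NCKAP1L was highest, in spleen. It was also at 21.3 RPKM in kidney, where WASF3 was at 8.87 and NCKAP1L at 0.95.

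**Figure D4:**
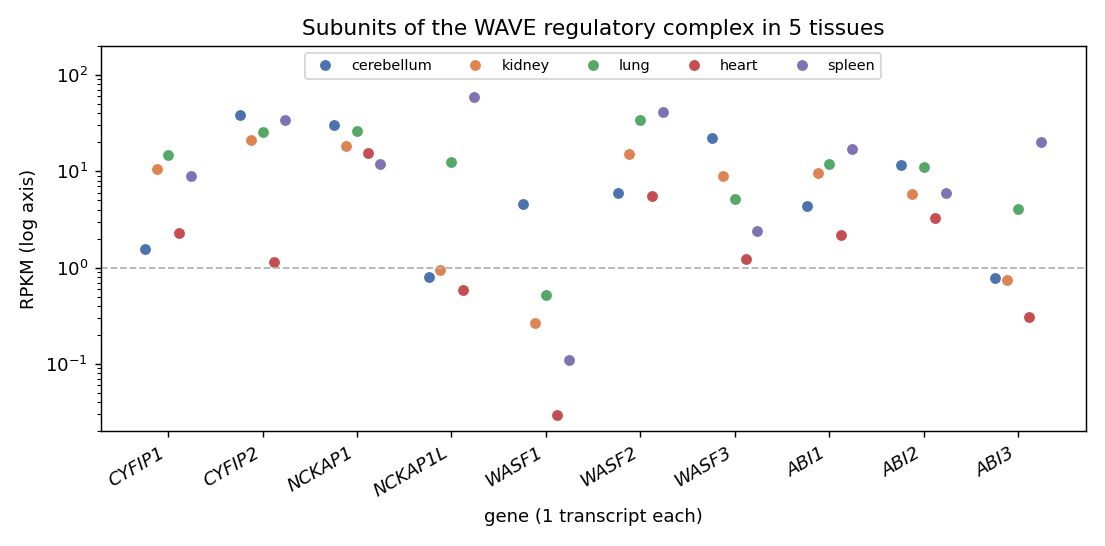
RPKM (log axis) of 10 subunits of the WAVE regulatory complex in 5 tissues, 1 transcript per gene and 1 library per tissue; the dashed line is 1 RPKM. CYFIP1 and CYFIP2 take opposite places in cerebellum (1.57 against 38.2 RPKM), and NCKAP1L and ABI3 are highest in spleen.

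Among the activators and effectors of the complex, 7 of 14 listed genes were in the files under their symbol. Against spleen 1 was at least 2-fold higher in cerebellum and 5 were lower, beside 16.2% and 35.5% of all genes. Against heart 3 were higher and 1 was lower, beside 43.4% and 12.1% of all genes, so the share higher than in heart was that of the background. RAC1, the GTPase that activates the complex, ran from 106 RPKM for lung over 74.5 for cerebellum, 57.1 for spleen and 47.0 for kidney to 31.7 for heart. ARPC2, a subunit of Arp2/3, had 304 RPKM in spleen and 39.2 in heart. Against kidney the counts were 0 higher and 2 lower, and against lung 0 higher and 3 lower, beside 27.6% and 33.3% of all genes lower.

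In the FMRP group, FMR1, which encodes FMRP, lay between 7.29 RPKM for cerebellum and 11.3 for kidney, with 9.73 for lung and 8.80 for spleen, and had 1.37 for heart. FMR1 was thus lowest in heart, as was CYFIP2, whereas its paralog FXR1, a muscle-expressed member of the family, had 11.7 RPKM in heart and 6.03 in cerebellum. FXR2 had 18.6 RPKM in cerebellum and 10.8 in heart. EIF4E, the cap-binding protein that CYFIP1 can hold, lay between 5.42 RPKM in cerebellum and 13.3 in spleen. Of these 4 genes, 1 was at least 2-fold higher in cerebellum in each of the 4 comparisons, and the number lower was 2 against spleen and 0 otherwise. Over all genes the shares higher were 19.0% against kidney, 15.0% against lung, 43.4% against heart and 16.2% against spleen, with 35.5% lower against spleen, and nothing was read from 4 genes.

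The editing enzymes stood in different proportions to CYFIP2. ADARB1 (ADAR2) was at 21.4 RPKM for cerebellum and 13.2 for lung, compared with 2.66 for spleen, 1.71 for kidney and 0.61 for heart. CYFIP2 was 1.78 times ADARB1 in cerebellum, 1.93 times in lung and 1.86 times in heart, against 12.4 times in kidney and 12.8 times in spleen. Kidney and spleen, with CYFIP2 at 21.3 and 34.2 RPKM, therefore combined a high level of the edited gene with a low level of this enzyme, whereas lung did not. ADAR (ADAR1) was at 43.9 RPKM for spleen, 31.8 for lung, 19.8 for kidney, 16.9 for cerebellum and 5.69 for heart, and the CYFIP2 level was 2.25 times that of ADAR in cerebellum and 1.08 times or less elsewhere. ADARB2, which is not known to have editing activity, was at 0.75 RPKM for cerebellum, with 0.069 for lung as the next value. Of the 2 enzyme genes at 1 RPKM, 1 was at least 2-fold higher in cerebellum than in kidney and 2 than in heart, 0 were so against lung, and against spleen 1 was higher and 1 lower. Over all genes 19.0% were higher than in kidney, 43.4% than in heart and 16.2% than in spleen, so nothing was read from 2 genes. A ratio of mRNA levels is not a measure of editing, and its relation to the editing of CYFIP2 was not tested.

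Genes with a like pattern were found by the root mean square difference of log2(RPKM + 1) over the 5 tissues, after the mean of each gene was taken off. Among 15687 genes that reached 1 RPKM somewhere, the median difference from CYFIP2 was 1.42, and 5 genes were within 0.5. The nearest, at 0.17, was ENSMMUG00000011008, which overlaps CYFIP2 and can share its reads. RPS6KA1, a ribosomal S6 kinase on chromosome 1, was at 0.18, with spleen at 31.6 RPKM, cerebellum at 25.1, lung at 17.2, kidney at 14.1 and heart at 0.60. APOE, the lipid carrier apolipoprotein E, was at 0.39, with 138 RPKM in spleen, 80.9 in cerebellum and 6.84 in heart. TKT was at 0.43 and MTSS1 at 0.44. The next were the unnamed ENSMMUG00000018491 (0.52), the transcription regulator ID4 (0.53), the immune surface protein CD83 (0.53), the chromatin remodeller CHD3 (0.54) and the mannosidase MAN1C1 (0.54). All 10 were lowest in heart, which the choice by likeness to CYFIP2 favours. With 5 points a likeness of this kind is a description of the libraries only, and with 0.1 RPKM added in place of 1 only 2 of the 10 genes stayed among the nearest 10.

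**Figure D5:**
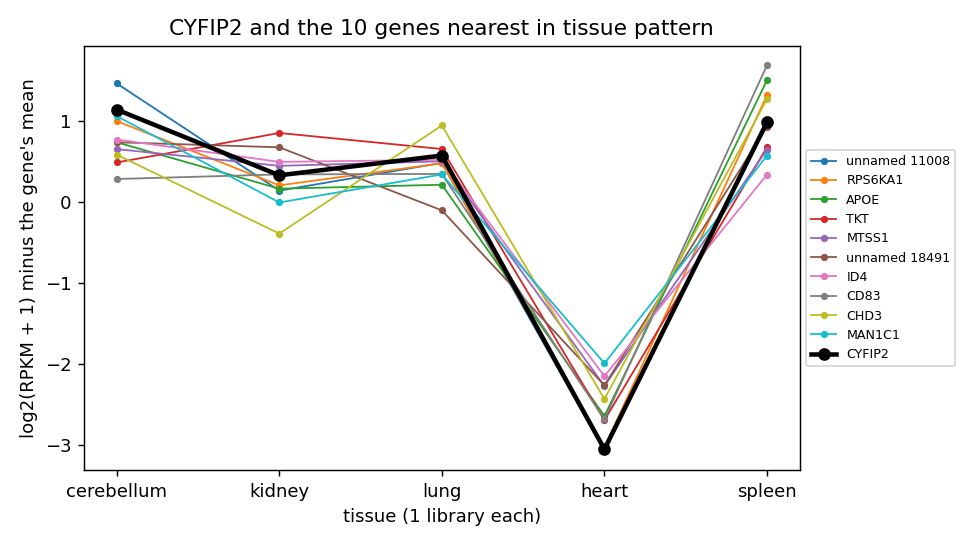
Tissue pattern of CYFIP2 (black) and of the 10 genes nearest to it, as log2(RPKM + 1) minus the mean of each gene over 5 tissues with 1 library each; lines join the tissues of 1 gene and mark no order. All 11 genes are lowest in heart, which the choice by likeness to CYFIP2 favours, and the nearest 2 lie 0.17 and 0.18 from CYFIP2.

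The surrounding genes had other patterns. Within 500 kb of CYFIP2 the files list 24 other genes with an identifier, of which 11 reached 1 RPKM somewhere. Of these, 6 were highest in spleen, 2 in lung, 2 in kidney and 1, the overlapping ENSMMUG00000011008, in cerebellum. The same shares over all genes were not counted. On the deposited scale spleen also had the higher upper quartile, at 9.85 RPKM against 7.04 in cerebellum, so nothing was read from these counts. ADAM19, a metalloprotease that begins 75318 bp beyond the end of CYFIP2, was at 19.3 RPKM for spleen and 4.85 for lung, and under 1 for heart (0.97), cerebellum (0.53) and kidney (0.39). CLINT1, a clathrin adaptor, was highest in kidney at 46.7 RPKM. MED7, a subunit of the Mediator complex, was between 2.80 RPKM in heart and 8.34 in spleen. FNDC9 lies within the span of CYFIP2 and had 0.54 RPKM in cerebellum and no reads elsewhere. Apart from the overlapping model, the neighbours at 1 RPKM or more differed from the CYFIP2 pattern by 1.28 to 1.77 on the same log2 measure, whose median over all genes was 1.42.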

How the data were processed

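One library each of cerebellum, kidney, lung, heart and spleen was analysed. For variant calling, the study's methods describe alignment of RNA reads with BWA to rheMac2 and to Ensembl transcripts. They do not say that expression levels came from that alignment. TopHat 1.2.0 is named in the submitters' processing notes, and the counting tool is not given in the sources used here. The deposited read counts per transcript are not normalized. RPKM is the authors' own scaling, and 0 rows failed to be given back from count, exon length and properly mapped reads (48306898 to 81517974 per library). Exon lengths in base pairs were deposited per transcript. Symbols were taken from a table of gene identifiers, which matched 15556 of 28633 genes; listed genes without a match were not analysed. One neighbouring gene is not reported here by name. Starts were written 1-based, since they are counted from 1 in the spleen data and from 0 in the other 4. Exon length differed between libraries for 7 transcripts. Whether the spleen library was processed like the others is not known, so tissue and processing cannot be told apart for spleen. The position of the recoding site was taken from the study only to find the transcripts that span it.

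The members, lists and comparisons were chosen with earlier results of these data known. No test between tissues was possible with 1 library each. Intervals are 95% (Wilson for levels, Clopper-Pearson for ratios) and cover counting error only; 3 reads, the floor, correspond to 0.0057 to 0.0097 RPKM for the 6416 bp transcript. Named were all CYFIP2 transcripts, examples of 4 fixed lists, the 10 genes nearest in pattern, genes within 500 kb and markers; the genes with a high ratio to heart were added after the values were seen. The alternatives were other scalings, transcripts, pseudocounts and filters. The pattern difference, the 2-fold counts and the ratio intervals were tested on simulated data, and the other procedures were not. The software was Python 3.11.15 with scipy 1.17.1, pandas 2.3.3, matplotlib 3.10.9 and numpy 2.4.6.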

Additional observations from a re-analysis of the deposited data

How the results depend on the processing

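No paired analysis was possible because each tissue has 1 library and no replicate number, and no replicate could be left out. CYFIP2 stayed lowest in heart under every scaling and transcript tried. After upper quartile scaling its RPKM was 24.4 for spleen, 20.1 for lung, 18.6 for kidney and 2.00 for heart, and cerebellum was 2.06, 1.90, 19.1 and 1.56 times kidney, lung, heart and spleen. After median ratio scaling the levels in that order were 22.4, 17.0, 18.5 and 2.27 and the ratios 2.07, 2.24, 16.8 and 1.71, and kidney over lung reversed to 1.08. Divided by the summed transcript reads, cerebellum, kidney, lung, heart and spleen were at 53.5, 26.6, 27.8, 2.36 and 39.6, with ratios of 2.01, 1.93, 22.7 and 1.35. The longest transcript gave 36.8 RPKM for cerebellum, 33.0 for spleen, 24.4 for lung and 20.4 for kidney. Summed over the transcripts, which share reads, the levels were 167, 104, 125, 5.53 and 165 and the ratios 1.60, 1.34, 30.1 and 1.01. The inner transcript gave ratios of 1.27, 1.11, 25.0 and 0.87, and the 671 bp one 1.35, 1.06, 24.4 and 0.82, so on the deposited scale the order of cerebellum and spleen reversed with both, which were chosen after seeing the data. Together with upper quartile scaling, cerebellum over spleen was 1.21 and 1.15, with median ratio scaling 1.32 and 1.26, and with division by summed reads 1.05 and 0.995, so the reversal stayed only for the short transcript in the last case. With 1 RPKM added, cerebellum was 18.4 times heart. The CYFIP2 percentile among all genes was 97.3 for cerebellum, 95.9 for spleen, 94.2 for lung, 93.1 for kidney and 68.8 for heart. Among only the genes at 1 RPKM or more it was 93.2, 90.7, 87.2, 83.4 and 4.05 in that order. With transcripts summed per gene, again among all genes, it was 99.2, 99.0, 98.4, 98.0 and 82.9. Without a filter and with 0.1 RPKM added, 4035 genes were higher in cerebellum than in kidney, 3249 than in lung and 3717 than in spleen, and 2400 were lower than in heart. Upper quartile scaling gave 3234 higher and 2865 lower than in heart. Of the 10 nearest genes, 2 were shared with 0.1 RPKM added and 6 with a filter of 1 RPKM in all 5 tissues. The cause of these shifts was not tested, and the number of libraries limits the precision of all values.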
